A study of Mus musculus with 16 samples.

Results

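The cytosolic and mitochondrial heat shock system was followed in mouse liver RNA through 10 genes: Hspa1a, Hspa1b, Hspa8, Hspa4l, Hsph1, Hsp90aa1, Dnajb1, Hspb1, Chordc1 and Hspe1. They were chosen by symbol, with earlier results of these data known. Each matched 1 row of a table of read counts with 41585 rows. Of these 10 genes, 9 were among the 13470 that passed a filter on low counts, and Hspa1a was not. The series was made to examine human CYP2B6 in obesity caused by diet, through liver transcripts. It holds 16 libraries in 4 groups of 4: hCYP2B6-Tg females, Cyp2b-null females, hCYP2B6-Tg males and Cyp2b-null males. All mice were C57BL/6 and ate a diet of 60% fat for 16 weeks, so the high-fat diet is common to every group and no lean liver was compared. CYP2B6 is a human drug-metabolising cytochrome P450, and Cyp2b is the mouse gene family that corresponds to it. The promoter of the transgene, the age of the mice and the exact Cyp2b genes removed are not stated in the labels. Libraries are named by group and by the number in their title, as in tg_female 5. The labels do not say whether each library is a separate animal, so p-values measure the spread between libraries, which may be partly technical. Whole liver was used, so fewer cells of a type and less RNA per cell cannot be told apart.

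Heat shock proteins are chaperones that bind unfolded or partly folded proteins and help them fold, or hold them until they are degraded. HSP70 proteins grip and release their clients in a cycle driven by ATP, J-domain proteins such as Dnajb1 start that cycle by stimulating ATP hydrolysis, and HSP110 proteins such as Hsph1 and Hspa4l reset it by exchanging the nucleotide. HSP90 takes over clients such as kinases and steroid receptors, small heat shock proteins hold unfolded clients without ATP, and Hspe1 is the lid of the mitochondrial folding chamber formed by Hspd1. When unfolded proteins build up, the transcription factor HSF1 binds heat shock elements, inverted repeats of GAA, and switches most of these genes on. Hspa8 is the constitutive cytosolic HSP70, whereas Hspa1a and Hspa1b are the strongly inducible pair and are usually low in unstressed tissue.

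The promoters of the members are shown because HSF1 acts through them. RefSeq promoter windows for GRCm38.p6, of 300 bases each, were held for 8 of the 10 members, all but Hspa8 and Hsp90aa1. A 2-unit heat shock element, GAANNTTC or TTCNNGAA on either strand, was found in 6 of these 8 genes (75%), against 17% of 27025 genes with a window. A 3-unit element (GAANNTTC continued by NNGAA, or TTCNNGAA continued by NNTTC) was found in Hsph1, Chordc1 and Hspe1 (37.5%), against 0.662% of all genes with a window. Every 3-unit match contains 2-unit matches, so the counts overlap. Neither motif was found in the windows of Hspa4l or Dnajb1. A match is a string of letters and not a binding measurement. The following stretches run 5′ to 3′ on the gene's strand from 150 bases before the start site to 30 bases after it, and capitals mark the 2-unit elements and their overlapping runs. They lie at chr17:34959209-34959388 (minus strand) for Hspa1b, chr5:149636286-149636465 (minus) for Hsph1, chr5:135887769-135887948 (plus) for Hspb1, chr9:18292117-18292296 (plus) for Chordc1 and chr1:55087998-55088177 (plus) for Hspe1.
Hspa1b: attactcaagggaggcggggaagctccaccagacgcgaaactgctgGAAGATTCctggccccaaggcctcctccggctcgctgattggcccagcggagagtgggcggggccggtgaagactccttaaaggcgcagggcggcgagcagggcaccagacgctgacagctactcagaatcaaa
Hsph1: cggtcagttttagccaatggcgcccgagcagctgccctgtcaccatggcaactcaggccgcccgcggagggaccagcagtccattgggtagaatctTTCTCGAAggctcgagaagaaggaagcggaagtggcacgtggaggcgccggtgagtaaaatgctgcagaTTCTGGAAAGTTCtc
Hspb1: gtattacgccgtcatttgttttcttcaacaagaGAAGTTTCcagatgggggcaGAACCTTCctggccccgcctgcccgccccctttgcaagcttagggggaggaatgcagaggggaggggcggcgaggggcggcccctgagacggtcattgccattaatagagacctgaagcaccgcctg
Chordc1: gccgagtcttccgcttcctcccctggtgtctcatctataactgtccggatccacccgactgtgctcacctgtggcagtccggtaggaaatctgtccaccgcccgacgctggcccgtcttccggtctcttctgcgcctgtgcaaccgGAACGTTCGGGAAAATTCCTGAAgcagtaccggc
Hspe1: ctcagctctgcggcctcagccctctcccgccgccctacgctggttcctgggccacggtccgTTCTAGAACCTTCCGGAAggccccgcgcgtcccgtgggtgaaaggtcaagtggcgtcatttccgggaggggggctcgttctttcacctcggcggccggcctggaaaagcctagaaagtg

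Hspb1 carries a pair of separate 2-unit elements, Hspe1 one long run upstream of the start, and Chordc1 a long run that spans the start. Hsph1 has 1 separate element before the start and a 3-unit run after it. The Hspa1a and Hspa1b windows were identical at 98.7% of alignment positions, with gap positions counted, and their transcripts at 85.3%. The Hspa1b window is therefore shown for both.

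In hCYP2B6-Tg females all 9 tested members had a higher estimate than in Cyp2b-null females (50.4% of all genes tested did), led by the small heat shock protein Hspb1 (2.70-fold) and the HSP110 Hsph1 (1.85-fold). None of the 9 passed the threshold of adjusted p under 0.05 by edgeR's quasi-likelihood test with Benjamini-Hochberg adjustment over 13470 genes. None of the 13470 genes passed it either (0%). At an unadjusted p under 0.05, 6 of the 9 were higher (Hspb1, Hsph1, Hspa4l, Chordc1, Hspa8 and Hspe1), against 3.94% of all genes tested. Because the members were chosen with earlier results of these data known, such counts beside shares of all genes are descriptions, here and below. The median log2 fold change was 0.48 over the 9 members and 0.0016 over all genes tested. In males, 8 of 9 estimates were higher in hCYP2B6-Tg livers, against 49% of genes, but the median was 0.099. No member passed the threshold in males (0.111% of genes did), and none had an unadjusted p under 0.05 (7.17% of genes). For one member the female result depended on the tool: Hspb1 had an adjusted p of 0.0413 by DESeq2, against 0.448 by edgeR and 0.165 to 0.783 in edgeR with 1 library left out. It also depended on 1 library. Without tg_female 5, the library with the highest level of 6 of the 9 members, the count at unadjusted p under 0.05 was 2 of 9, and it was 3 of 9 without null_female 1.

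**Figure D1:**
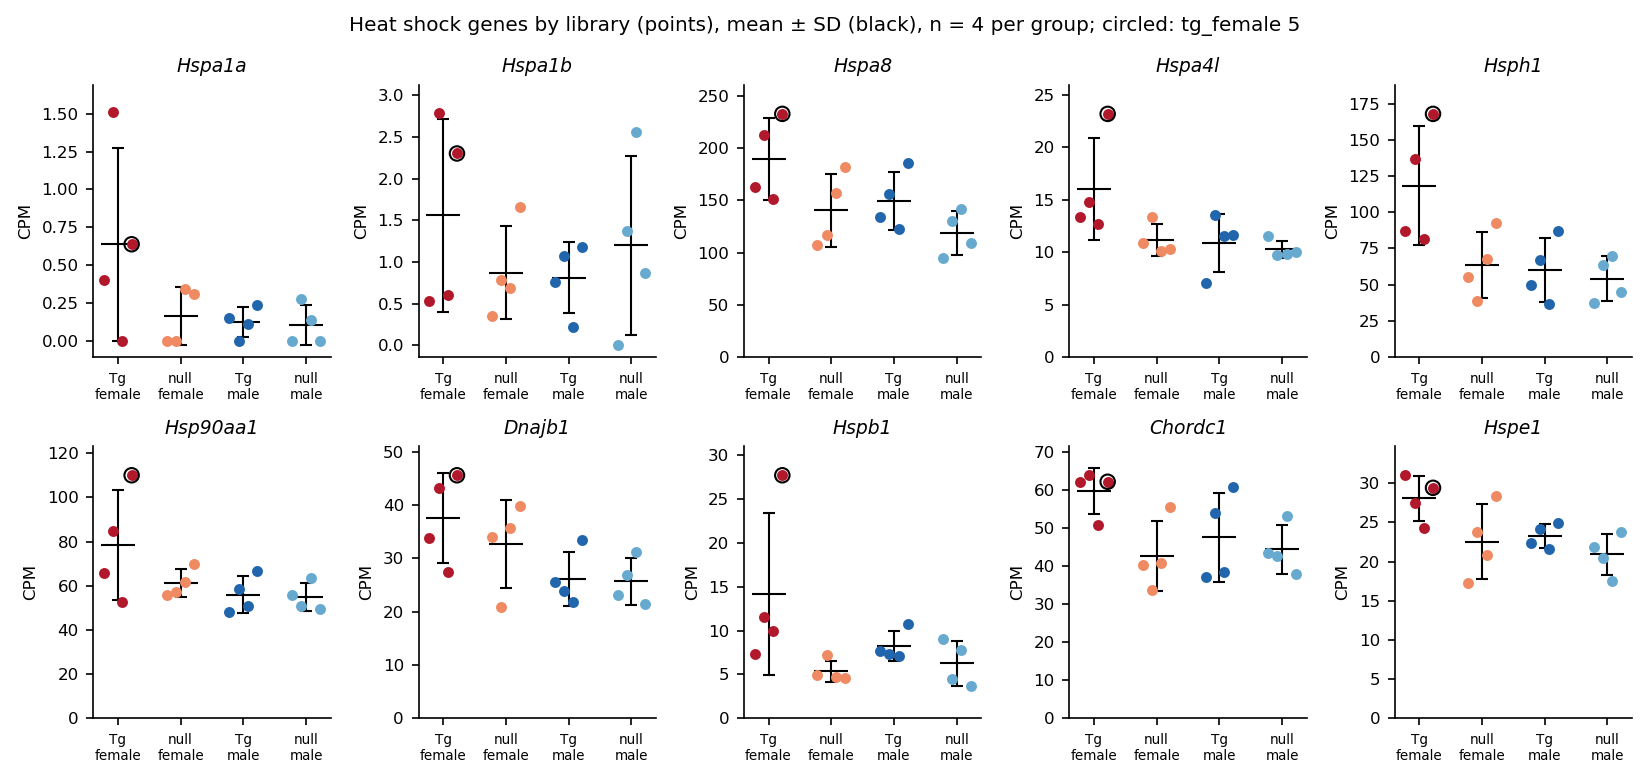
CPM, the read count scaled to the normalised library total (y axis), of the 10 genes in each of 16 libraries (points) by group (x axis), with the mean and SD of 4 libraries in black; tg_female 5 is circled. Hspb1 in tg_female 5 stands at 27.7 CPM, and in females the groups of Hspb1 do not overlap.

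For 3 members, counts also stood on rows of processed pseudogenes, copies of their mRNA inserted elsewhere in the genome. Whether these counts came from transcripts of the members or of the pseudogenes was not tested, and the annotation lists Gm12346 as transcribed. The Hspa8 transcript shares 70.0% of its 50-base windows with Gm15459 on chromosome 5 and 46.0% with Gm8355 on chromosome 10. Over the 16 libraries the table gave 18199 counts to Hspa8, 95292 to Gm15459 and 22694 to Gm8355. The row named Hspa8 thus held 13.2% of the counts of Hspa8 and the 5 pseudogene rows that share at least 10% of its windows. For Hsp90aa1 the table gave 7527 counts, against 17573 for Gm12346 (51.5% of windows) and 4049 for Gm5844 (36.8%), so the named row held 25.8% of the sum. For Hspb1 it gave 1016 counts and 802 for Hsp25-ps1 (51.6% of windows), which leaves 55.9% on the named row. The labels do not say how reads that match several places were counted. The level of the named row may therefore understate these 3 genes, and their differences are given below both for the named row and for the sum, an alternative added after the data were seen. Hspa1a and Hspa1b also share windows with each other (58.8% of Hspa1a and 62.3% of Hspa1b). Hspe1 shares 44.8% of its windows with other transcripts, and its copies were not summed. Hsph1 shared none, and Hspa4l, Dnajb1 and Chordc1 shared under 1% (0.626%, 0.441% and 0.331%).

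**Figure D2:**
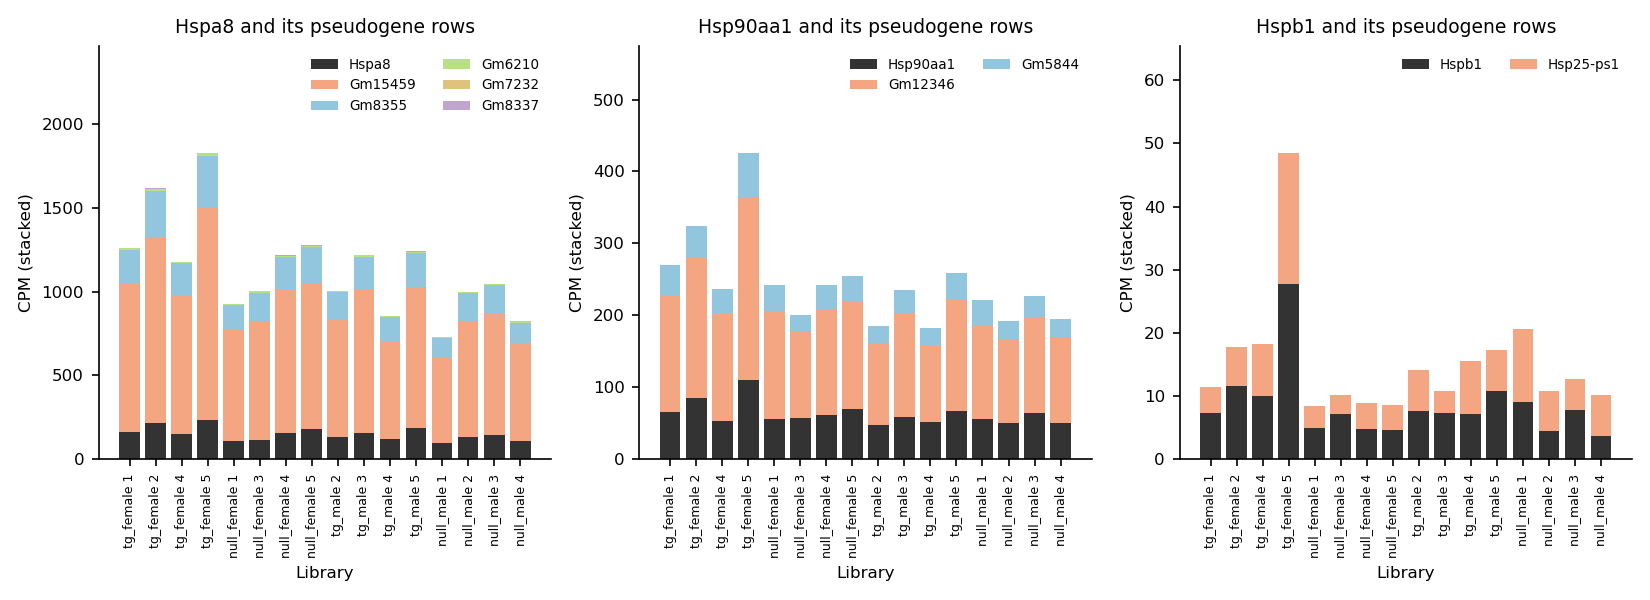
Stacked CPM (y axis) of the named row (black) and its pseudogene rows (colours) of Hspa8, Hsp90aa1 and Hspb1 in each of 16 libraries (x axis). The named row is the smaller part for Hspa8 and Hsp90aa1, and tg_female 5 has the tallest bar in all 3 panels.

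Per kilobase of exon, the named rows had the following order over 16 libraries. Hspa8 was highest at 34.8 ± 9.01 CPM per kb (SD, n = 16), then Hspe1 at 16.1 ± 2.68 and Hsp90aa1 at 15.9 ± 4.00. Hsph1 (10.2 ± 4.96), Dnajb1 (9.52 ± 2.47), Hspb1 (8.24 ± 5.46) and Chordc1 (6.47 ± 1.38) came next, and Hspa4l followed at 1.03 ± 0.299. The inducible pair was lowest, with 0.396 ± 0.297 for Hspa1b and 0.0868 ± 0.129 for Hspa1a. Hspe1 and Hsp90aa1 lay closer to each other than their SDs, as did Hsph1 and Dnajb1, and Dnajb1 and Hspb1.

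The HSP70 genes stood far apart in level. Hspa1b (chr17:34956429-34959238, minus strand, 1 exon) and Hspa1a (chr17:34969359-34972156, minus strand, 1 exon) lie 10120 bases apart and were near the detection limit, since 3 counts correspond to 0.312 to 0.540 CPM. Hspa1a had 3, 13, 0 and 5 counts in the 4 hCYP2B6-Tg females (tg_female 1, 2, 4 and 5) and 0, 0, 3 and 3 in the Cyp2b-null females. In males it had 1, 0, 1 and 2 counts in hCYP2B6-Tg and 0, 2, 1 and 0 in Cyp2b-null livers. The groups overlapped in both sexes, and exact two-sided permutation tests of CPM gave p = 0.200 in females and 0.914 in males (0.400 and 0.914 adjusted over 4 comparisons), where 4 against 4 libraries cannot go below 0.0286. Hspa1a also overlaps Gm20481 on the opposite strand, and the labels do not state the strand setting of the counting.

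Hspa1b had 4, 24, 4 and 18 counts in hCYP2B6-Tg females and 2, 5, 6 and 16 in Cyp2b-null females. Its counts were 5, 7, 2 and 10 in hCYP2B6-Tg males and 0, 10, 19 and 6 in Cyp2b-null males. The 4 libraries with the most counts were tg_female 2, tg_female 5, null_female 5 and null_male 3, and no hCYP2B6-Tg male had more than 10. The log2 fold change was 0.77 ± 0.61 (SE) in females (adjusted p = 0.815) and -0.68 ± 0.69 in males (0.896) by edgeR's quasi-likelihood test. With 1 library left out the female value ran from 0.32 (without tg_female 2) to 1.36 (without null_female 5), and the male value from -1.01 (without null_male 1) to -0.020 (without null_male 3). Within-group SD of its log2 CPM was larger than that of 99.7% of the genes tested.

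Hspa8 (chr9:40801276-40805202, plus strand) is the housekeeping HSP70 and hosts the small nucleolar RNA genes Snord14c, Snord14d and Snord14e. Its row had 163, 213, 151 and 233 CPM in hCYP2B6-Tg females and 107, 117, 157 and 182 CPM in Cyp2b-null females. In males it had 134, 156, 123 and 186 CPM in hCYP2B6-Tg and 94.8, 130, 142 and 109 CPM in Cyp2b-null livers. The hCYP2B6-Tg libraries tended to the upper end in both sexes, but the ranges overlapped. The log2 fold change was 0.43 ± 0.20 in females and 0.33 ± 0.20 in males (edgeR adjusted p = 0.642 and 0.784), the closest pair of estimates between the sexes, with a difference of -0.10 ± 0.28 (males minus females). With its pseudogene rows Hspa8 summed to 1470 ± 305 CPM in hCYP2B6-Tg females and 1105 ± 167 CPM in Cyp2b-null females (SD, n = 4 each). In males the sum was 1081 ± 183 CPM in hCYP2B6-Tg and 899 ± 148 CPM in Cyp2b-null livers. The differences of the sum were 0.41 ± 0.16 in females and 0.26 ± 0.16 in males (edgeR adjusted p = 0.593 and 0.797).

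The HSP110 genes, the nucleotide exchange partners of HSP70, were Hsph1 (chr5:149616843-149636498, minus strand) and Hspa4l (chr3:40744500-40796103, plus strand). Hsph1 had 87.2, 137, 81.6 and 168 CPM in hCYP2B6-Tg females and 55.4, 39.0, 67.5 and 92.9 CPM in Cyp2b-null females. In males it had 49.7, 66.9, 36.8 and 87.2 CPM in hCYP2B6-Tg and 37.3, 63.7, 70.1 and 45.1 CPM in Cyp2b-null livers. Only null_female 5 overlapped the hCYP2B6-Tg females, whereas the male groups were interleaved. On the log2 scale the difference was 0.89 ± 0.34 in females (edgeR adjusted p = 0.590; 0.67 without tg_female 5) and 0.15 ± 0.35 in males (0.968), with a 95% interval in males of -0.54 to 0.84. Hspa4l had 13.4, 14.8, 12.7 and 23.2 CPM in hCYP2B6-Tg females and 10.9, 13.4, 10.1 and 10.3 CPM in Cyp2b-null females. In males it had 7.01, 13.5, 11.5 and 11.6 CPM in hCYP2B6-Tg and 11.5, 9.75, 9.85 and 10 CPM in Cyp2b-null livers. Only null_female 3 reached into the range of hCYP2B6-Tg females, and tg_female 5 stood apart above. Fitted log2 fold changes were 0.54 ± 0.19 in females (edgeR adjusted p = 0.548) and 0.093 ± 0.20 in males (0.966), and the female value was 0.30 without tg_female 5.

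The HSP90 gene Hsp90aa1 (chr12:110691036-110696395, minus strand) encodes the inducible cytosolic form, and Chordc1 (chr9:18292267-18314000, plus strand) encodes an HSP90 cochaperone. Hsp90aa1 ranged from 52.6 to 110 CPM in hCYP2B6-Tg females and from 55.7 to 69.8 CPM in Cyp2b-null females, so tg_female 4 lay below and tg_female 2 and 5 above all Cyp2b-null females. In males it ranged from 48.1 to 66.5 CPM in hCYP2B6-Tg and from 49.7 to 63.6 CPM in Cyp2b-null livers. Hsp90aa1 had log2 fold changes of 0.36 ± 0.17 in females and 0.029 ± 0.18 in males (edgeR adjusted p = 0.668 and 0.987), and the female value was 0.15 without tg_female 5. Summed with its pseudogene rows it was 314 ± 83.0 CPM in hCYP2B6-Tg females, against 235 ± 23.9 CPM in Cyp2b-null females, which is 0.42 ± 0.16 on the log2 scale (edgeR adjusted p = 0.574). The male difference of the sum was 0.046 ± 0.16 (edgeR adjusted p = 0.978). Chordc1 had 62.0, 63.8, 50.8 and 62.1 CPM in hCYP2B6-Tg females and 40.3, 33.8, 40.9 and 55.4 CPM in Cyp2b-null females. The overlap came from tg_female 4 and null_female 5. Its log2 fold change was 0.48 ± 0.16 in females and 0.099 ± 0.17 in males (edgeR adjusted p = 0.548 and 0.954). Male Chordc1 levels ran from 37.0 to 60.8 CPM in hCYP2B6-Tg and from 38.0 to 53.2 CPM in Cyp2b-null livers. Chordc1 overlaps the pseudogene Gm19178 on the opposite strand.

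The J-domain gene Dnajb1 (chr8:83608175-83612653, plus strand) had the smallest female difference of the 9. It ranged from 27.5 to 45.6 CPM in hCYP2B6-Tg females and from 20.8 to 39.9 CPM in Cyp2b-null females, and from 21.9 to 33.4 CPM in hCYP2B6-Tg males and 21.4 to 31.2 CPM in Cyp2b-null males. For Dnajb1 the log2 fold change was 0.20 ± 0.19 in females, with a 95% interval of -0.18 to 0.58, and 0.026 ± 0.20 in males (edgeR adjusted p = 0.861 and 0.991). The female estimate was 0.038 without null_female 3, and -0.0065 without null_female 1, null_female 3 and tg_male 4 together.

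Hspb1 (chr5:135887919-135889563, plus strand) encodes HSP25, the mouse form of human HSP27, a small heat shock protein that also acts on actin filaments. Its row had 7.38, 11.6, 9.97 and 27.7 CPM in hCYP2B6-Tg females and 4.91, 7.16, 4.71 and 4.57 CPM in Cyp2b-null females. In males it had 7.62, 7.37, 7.08 and 10.8 CPM in hCYP2B6-Tg and 9.01, 4.53, 7.83 and 3.73 CPM in Cyp2b-null livers. Every hCYP2B6-Tg female was above every Cyp2b-null female, by a narrow margin at tg_female 1 and null_female 3, and Hspb1 was the only one of 9 members with no overlap in females, against 1.74% of all genes tested. The male groups overlapped. The log2 fold change was 1.43 ± 0.39 in females (edgeR adjusted p = 0.448) and 0.42 ± 0.41 in males (0.895), and the difference was -1.02 ± 0.57 (males minus females, 0.715). Without tg_female 5 the female value was 0.88 and the difference -0.46, and leaving out any one other library gave up to 1.65. Summed with Hsp25-ps1, the level was 11.4, 17.8, 18.3 and 48.5 CPM in hCYP2B6-Tg females and 8.41, 10.1, 8.96 and 8.53 CPM in Cyp2b-null females, again with no overlap. The log2 fold change of the sum was 1.42 ± 0.40 in females and 0.12 ± 0.40 in males (edgeR adjusted p = 0.467 and 0.978).

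The mitochondrial member Hspe1 (chr1:55088148-55091317, plus strand) varied least. It had 31.0, 27.5, 24.3 and 29.4 CPM in hCYP2B6-Tg females and 17.2, 23.8, 20.8 and 28.4 CPM in Cyp2b-null females, which overlapped through null_female 5. In males it ranged from 21.6 to 24.9 CPM in hCYP2B6-Tg and from 17.5 to 23.8 CPM in Cyp2b-null livers. Its log2 fold change was 0.31 ± 0.13 in females and 0.15 ± 0.14 in males (edgeR adjusted p = 0.622 and 0.877), and the female value was 0.20 without null_female 1. Its partner in the mitochondrial chamber, Hspd1, starts 95 bases away on the opposite strand. The first bases of Hspe1 and Hspd1 overlap, and the strand setting of the counting is not stated. Hspd1 had log2 fold changes of 0.12 ± 0.074 in females and 0.15 ± 0.074 in males (edgeR adjusted p = 0.759 and 0.712). Hspd1 also had a pseudogene row, with 24760 counts on its own row and 24670 on Hspd1-ps3.

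**Figure D3:**
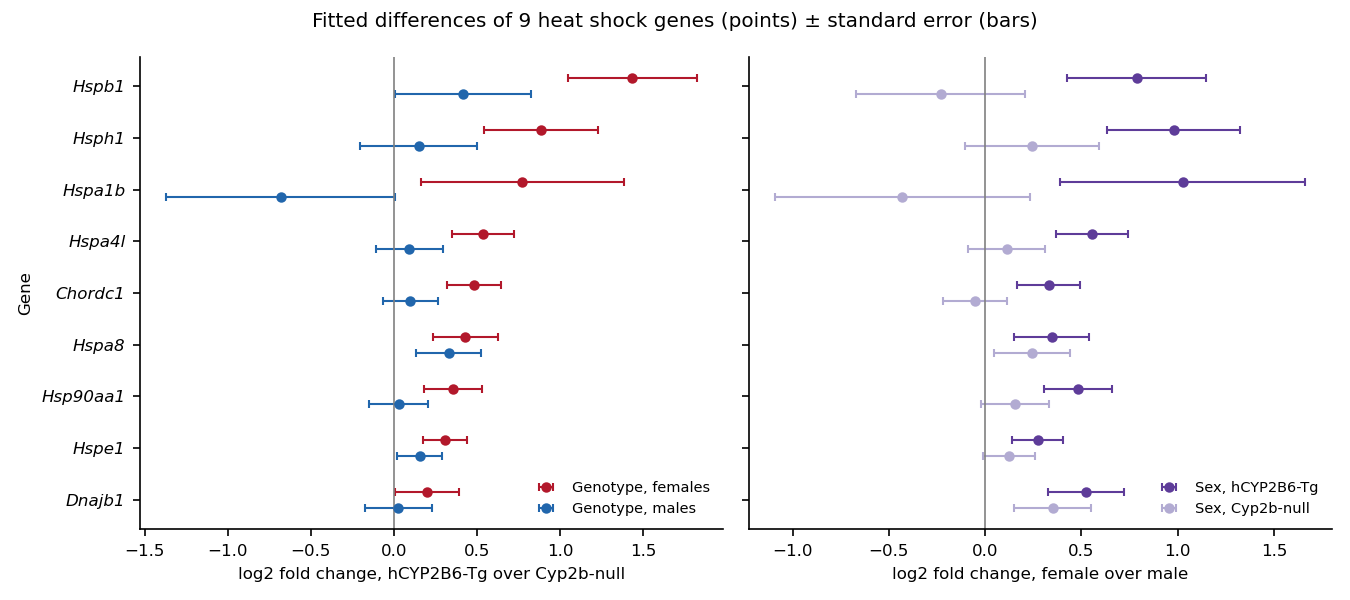
Fitted log2 fold changes (x axis) of the 9 tested members (y axis) ± SE, on the left for genotype in females (red) and males (blue) and on the right for sex in hCYP2B6-Tg (dark) and Cyp2b-null (light) livers. All 9 female genotype estimates are above 0, from 0.20 for Dnajb1 to 1.43 for Hspb1, and none passed the threshold.

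Averaged over both sexes, all 9 estimates were higher in hCYP2B6-Tg livers (50.1% of genes) and none passed the threshold, which 0.0148% of genes did. At an unadjusted p under 0.05 there were 5 members (Hspb1 0.93 ± 0.28, Hspa8 0.38 ± 0.14, Hspa4l 0.31 ± 0.14, Chordc1 0.29 ± 0.12 and Hspe1 0.23 ± 0.095 on the log2 scale), against 3.26% of genes that were higher, and 3 members without tg_male 5. The difference of the genotype effect between the sexes was the test of whether females and males departed from each other. All 9 differences were negative (48.6% of genes had a positive one), with a median of -0.38, that is, a smaller estimate in males. None passed the threshold (0.0445% of genes did) and none had an unadjusted p under 0.05, against 7.7% of genes. The effects were therefore not shown to differ between the sexes.

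Sex was compared within each genotype. In hCYP2B6-Tg livers all 9 estimates were higher in females than in males (52.5% of genes), with a median log2 fold change of 0.52, against 0.016 over all genes. None passed the threshold, which 10.3% of genes did. At an unadjusted p under 0.05 there were 6 (Hsph1, Hsp90aa1, Dnajb1, Hspa4l, Hspb1 and Hspe1), against 11.9% of genes that were higher. The estimates were 0.98 ± 0.34 for Hsph1, 0.56 ± 0.19 for Hspa4l, 0.52 ± 0.20 for Dnajb1 and 0.48 ± 0.17 for Hsp90aa1. The smallest edgeR adjusted p was 0.0612 for Hspa4l, and Hsp90aa1 summed with its pseudogene rows passed (0.55 ± 0.16, edgeR adjusted p = 0.0346, against 0.0965 for the row alone). Without tg_female 5 the count at unadjusted p under 0.05 was 0 of 9, with estimates of 0.32 for Hspa4l and 0.27 for Hsp90aa1, and it was 3 without tg_male 4. Without tg_female 4, 3 members passed the threshold: Hsp90aa1 (0.63), Hspa4l (0.64) and Dnajb1 (0.64). In Cyp2b-null livers 6 of 9 estimates were higher in females (50.7% of genes), with a median of 0.12, none passed the threshold (7.52% of genes did), and none had an unadjusted p under 0.05 (19.9% of genes). Hspa1a had exact permutation p values of 0.143 in hCYP2B6-Tg and 0.657 in Cyp2b-null livers (0.400 and 0.876 adjusted over 4 comparisons). The female genotype contrast and the sex contrast in hCYP2B6-Tg livers share the 4 hCYP2B6-Tg female libraries, so they are not separate evidence of a high level in that group.

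The members varied together from library to library. The plot of levels relative to the mean shows tg_female 5 and tg_female 2 high across the rows of members: tg_female 5 was the highest of 16 libraries for 6 of 9 members, tg_female 2 for Hspa1b and Chordc1, tg_female 1 for Hspe1, and both tg_female 5 and tg_female 2 were in the top 4 for all 9. At the other end, null_male 1, tg_male 2 and null_female 3 were each the lowest for 2 members, and null_male 4 was in the bottom 4 for 7. The highest library had 7.42 times the level of the lowest for Hspb1, 4.57 times for Hsph1, 3.32 times for Hspa4l, 2.46 times for Hspa8 and 1.81 times for Hspe1. After subtraction of group means, 35 of the 36 pairs of members correlated positively over 16 libraries, with a median Pearson r of 0.43, and 18 pairs (50%) were over 0.5, against 4.96% of all pairs of tested genes. The closest pair was Hspa8 and Hsph1 (r = 0.94, Spearman rho = 0.87), followed by Hsph1 and Dnajb1 (0.88 and 0.92). Hspe1, Hspa4l and Hspb1 followed the others least, with a mean r of 0.18, 0.28 and 0.31 to the remaining members. All of these correlations are descriptions, because the genes share libraries and scaling.

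The mean of the 9 members was taken without scaling each gene by its spread. Hspa1b, with a within-group SD of log2 CPM of 1.01 against 0.198 to 0.535 for the other members, therefore weighs most in it. The genes whose pattern was most like the mean of the 9 members, with group means subtracted, were largely genes of the endoplasmic reticulum (ER). By Pearson r over 16 libraries they were Lman1 (0.95), Dnajb11 (0.95), Gm8355 (0.95), Gm15459 (0.93), Syvn1 (0.93), Hspa5 (0.91), Hyou1 (0.91) and Spcs2 (0.91), with r of 0.89 to 0.94 when tg_female 5 and tg_male 5 were left out. Gm8355 and Gm15459 are the Hspa8 pseudogenes described above and may not be separate from Hspa8 in this sense. Lman1 is a cargo receptor between the ER and the Golgi, Syvn1 an ER ubiquitin ligase, Spcs2 a subunit of signal peptidase, and Hspa5, Hyou1 and Dnajb11 the ER counterparts of HSP70, HSP110 and J-domain proteins. Of 15 ER chaperone genes, 14 had an r over 0.5 to the members' mean, with a median of 0.84. Over the 13461 tested genes that are not members, 6.48% had an r over 0.5 and the median was 0.00028. The mean of those 15 followed Hsph1 (r = 0.86), Hspa8 (0.84), Hsp90aa1 (0.81) and Dnajb1 (0.81) closely, and its r was 0.54 with Hspb1, 0.24 with Hspa4l and 0.050 with Hspe1. Without null_male 3 and tg_female 5 the r was 0.22 for Hspb1, 0.0034 for Hspa4l and 0.32 for Hspe1. The ER genes had higher estimates in hCYP2B6-Tg females for 15 of 15 (50.4% of all genes tested), a median log2 fold change of 0.47 and 11 that were higher at unadjusted p under 0.05 (3.94% of genes), and none passed. Smallest in p were Pdia6, a disulfide isomerase (0.32 ± 0.11), and Dnajc3, a J-domain protein (0.32 ± 0.11, edgeR adjusted p = 0.548 for both). In males the median of the ER genes was 0.0049. By sex in Cyp2b-null livers, Pdia6 was lower in females than in males (-0.47 ± 0.11, edgeR adjusted p = 0.00834). In hCYP2B6-Tg livers Pdia6 had -0.094 ± 0.11 (edgeR adjusted p = 0.667). With group means kept, null_male 3 had a mean log2 deviation from the mean of 16 libraries of 0.54 for the ER chaperones and 0.11 for the members. It was the highest Cyp2b-null male in both lists. In null_male 1, 2 and 4 the deviations were -0.296, -0.0698 and -0.350 for the ER chaperones and -0.448, -0.158 and -0.359 for the members.

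**Figure D4:**
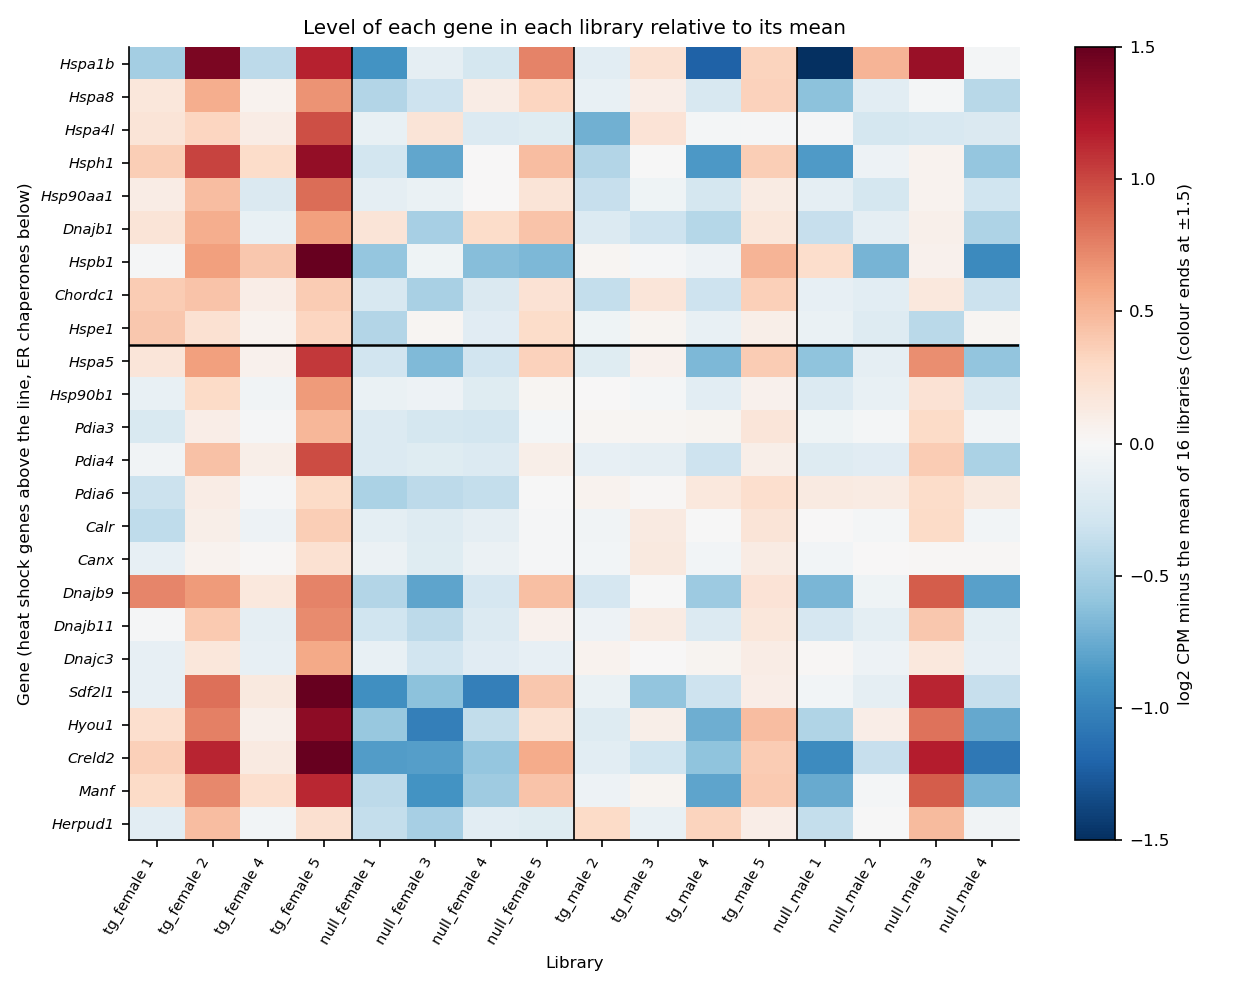
log2 CPM minus the gene's mean over 16 libraries (colour) for the 9 tested members (above the line) and 15 ER chaperone genes (below it), by library (x axis) in the order hCYP2B6-Tg females, Cyp2b-null females, hCYP2B6-Tg males and Cyp2b-null males. The column of tg_female 5 is red from top to bottom (mean deviation of the members 0.91 and of the ER genes 0.82).

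Among the other genes of the heat shock system, in lists by role, none passed the threshold in a genotype comparison. Hsf1, the main regulator of the members, had a log2 fold change of 0.44 ± 0.16 in females and -0.21 ± 0.16 in males (edgeR adjusted p = 0.548 and 0.851), a difference of -0.65 ± 0.23 (0.462). Hsf1 was higher in females than in males within hCYP2B6-Tg livers (0.52 ± 0.16, edgeR adjusted p = 0.0362) and not past the threshold in Cyp2b-null livers (-0.14 ± 0.16, 0.708). Hsbp1, which binds HSF1, had 0.020 ± 0.088 in females and 0.13 ± 0.088 in males (edgeR adjusted p = 0.982 and 0.815). Of 4 tested heat shock factor genes and binding partners none had an r over 0.5 to the members' mean. Among 19 HSP90 cochaperone genes, with Hsp90ab1, 14 had higher estimates in hCYP2B6-Tg females (50.4% of all genes tested). An unadjusted p under 0.05 was found for 3 (7.59% of genes in either direction), including Cacybp (0.24 ± 0.10) and Hsp90ab1 (0.24 ± 0.11, edgeR adjusted p = 0.606 and 0.625). By sex in hCYP2B6-Tg livers, Fkbp5 (0.87 ± 0.25, edgeR adjusted p = 0.0273) and Cacybp (0.33 ± 0.10, 0.0419) were higher in females. In Cyp2b-null livers the estimates had the same direction, 0.70 ± 0.24 and 0.18 ± 0.11 (edgeR adjusted p = 0.0800 and 0.371).

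Among 20 J-domain and nucleotide exchange genes, 12 estimates were higher in hCYP2B6-Tg females (50.4% of all genes tested). Only 1 had an unadjusted p under 0.05 (7.59% of all genes tested, in either direction), Hspbp1 (0.35 ± 0.15, edgeR adjusted p = 0.618). Bag4 (-0.53 ± 0.12, edgeR adjusted p = 0.00627) and Bag1 (-0.29 ± 0.088, 0.0388), cochaperones of HSP70, were lower in females than in males in hCYP2B6-Tg livers. In Cyp2b-null livers they had -0.29 ± 0.12 and -0.073 ± 0.088 (edgeR adjusted p = 0.165 and 0.716). Of 9 other small heat shock genes 4 were tested, and Hspb6 was lower in hCYP2B6-Tg females than males (-0.61 ± 0.13, edgeR adjusted p = 0.00313) and likewise in Cyp2b-null livers (-0.59 ± 0.13, 0.00549), while its genotype estimates were -0.093 and -0.066. Hspb8 had genotype estimates of 0.082 ± 0.13 in females and -0.12 ± 0.13 in males (edgeR adjusted p = 0.926 and 0.915). Among 15 mitochondrial chaperones and proteases 9 had higher estimates in hCYP2B6-Tg females (50.4% of all genes tested), with a median of 0.062. At an unadjusted p under 0.05 there was 1 (7.59% of all genes tested). The one gene of this list with an unadjusted p under 0.05 in females had a lower estimate: Clpx, the unfoldase of a mitochondrial protease, at -0.79 ± 0.28 in females, -0.56 ± 0.28 in males and -0.68 ± 0.20 averaged over the sexes (edgeR adjusted p = 0.572, 0.718 and 0.458). Among 8 subunits of the cytosolic chaperonin CCT 7 had higher estimates in hCYP2B6-Tg females (50.4% of all genes tested), with a median of 0.096. Cct6a had 0.11 ± 0.079 in females and 0.20 ± 0.079 in males (edgeR adjusted p = 0.793 and 0.564), and Cct2 had 0.13 ± 0.077 and 0.15 ± 0.077 (0.750 and 0.712). Hspa9, the mitochondrial HSP70, was lower in females than in males in hCYP2B6-Tg livers (-0.23 ± 0.071, edgeR adjusted p = 0.0359). In Cyp2b-null livers Hspa9 had -0.12 ± 0.071 (edgeR adjusted p = 0.375). Of 8 other heat-induced genes, the immediate early response gene Ier5 was higher in females than in males in hCYP2B6-Tg livers (0.91 ± 0.25, edgeR adjusted p = 0.0179). In Cyp2b-null livers Ier5 had 0.39 ± 0.24 (edgeR adjusted p = 0.377). Its genotype estimates were -0.018 in females and -0.54 in males (edgeR adjusted p = 0.994 and 0.698). Of 6 other HSP70 and HSP110 genes tested, none had an unadjusted p under 0.05 in either sex (7.59% and 7.17% of all genes tested in females and males). The 2 with the smallest p were Hspa13, an ER HSP70, with 0.39 ± 0.20 in females (edgeR adjusted p = 0.700), and Hspa4, an HSP110, with 0.12 ± 0.092 (0.809).

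Several measured quantities were set beside the members' pattern. Library totals ran from 5584587 to 9672708 counts and were 6520196 to 8752546 in hCYP2B6-Tg females, 5584587 to 9672708 in Cyp2b-null females, 6634889 to 8946107 in hCYP2B6-Tg males and 5673380 to 7402265 in Cyp2b-null males. Over 16 libraries the log2 CPM of Hspa8 correlated with the log2 total (Pearson r = 0.66, two-sided permutation p = 0.00562, adjusted over 9 members 0.0506; Spearman rho = 0.68, p = 0.00491, adjusted 0.0442). The r was 0.58 without null_female 5 and null_female 1, 0.74 in females and 0.58 in males. The other 8 members had r of 0.050 (Hspb1) to 0.49 (Dnajb1) with adjusted permutation p of 0.168 to 0.857. Over all genes tested the median r was 0.0064, 2.18% were over 0.5 and the 95th percentile was 0.418. Beside Hspa8, Dnajb1 (0.486), Hspa1b (0.482), Hsph1 (0.458) and Chordc1 (0.421) lay above that percentile of the r with the log2 total. The remaining members did not. This relation was computed after the data were seen, and its part in the genotype differences was not tested. Summed CPM of 8 hepatocyte markers was 116341 to 135249 in hCYP2B6-Tg females, 115737 to 140966 in Cyp2b-null females, 116821 to 124782 in hCYP2B6-Tg males and 110116 to 119333 in Cyp2b-null males. Of 8 Kupffer cell markers it was 451 to 606, 420 to 692, 351 to 431 and 307 to 467 CPM in the same order of groups, and of 5 red cell markers 196 to 346, 191 to 290, 351 to 459 and 314 to 462 CPM. In that order, 7 endothelial markers summed to 210 to 289, 182 to 296, 237 to 269 and 217 to 249 CPM, and 7 stellate cell markers to 253 to 314, 286 to 324, 227 to 260 and 207 to 295 CPM. For 5 bile duct markers the sums were 22.8 to 41.2, 28.6 to 56.7, 25.0 to 39.0 and 20.5 to 97.9 CPM, for 7 lymphocyte markers 4.85 to 8.16, 7.16 to 8.06, 3.59 to 5.18 and 3.84 to 4.50 CPM, and for 7 fat cell markers 3.72 to 6.80, 3.11 to 8.73, 8.38 to 43.8 and 9.45 to 25.1 CPM. The muscle genes Ckm and Myh1 and the pancreas genes Cpa1, Pnlip and Clps were at 0 in all 16 libraries. The other 4 of 6 muscle markers were detected, with sums of at most 0.537 CPM. The other 3 of 6 pancreas markers were detected too, and their sums were 15.9 to 54.4 CPM in Cyp2b-null males. These sums reached at most 16.6, 16.2 and 21.4 CPM in hCYP2B6-Tg females, Cyp2b-null females and hCYP2B6-Tg males. Transcripts of pancreas markers were thus present in every group. Of 12 immediate early genes tested, which respond to handling and tissue removal, none had an unadjusted p under 0.05 for genotype in females and 2 had in males (7.59% and 7.17% of all genes tested), and their median r to the members' mean was 0.020. The smallest p for genotype were those of Jun (-0.30 ± 0.32 in females and 0.66 ± 0.30 in males, edgeR adjusted p = 0.871 and 0.672) and Myc (0.30 ± 0.54 and 0.92 ± 0.44, 0.932 and 0.696). By sex, Jun was lower in hCYP2B6-Tg females than males (-1.07 ± 0.30, edgeR adjusted p = 0.0343) and had -0.12 ± 0.31 (0.886) in Cyp2b-null livers. Atf3 (1.77 ± 0.51, edgeR adjusted p = 0.0326) and Klf6 (0.70 ± 0.21, 0.0478) were higher in Cyp2b-null females than males. In hCYP2B6-Tg livers Atf3 and Klf6 had 0.50 ± 0.49 and 0.36 ± 0.20 (edgeR adjusted p = 0.588 and 0.294). Atf3 was near the detection limit in Cyp2b-null males, with a mean of 0.827 CPM (0.144 to 1.80). The cold-inducible RNA-binding genes Rbm3 (-0.15 ± 0.24 in females and 0.70 ± 0.26 in males, edgeR adjusted p = 0.923 and 0.536) and Cirbp (-0.11 ± 0.26 in each sex, 0.960 and 0.969) did not pass. Of 17 circadian clock genes, 4 in females and 8 in males had an unadjusted p under 0.05 for genotype (7.59% and 7.17% of all genes tested), and Ciart, a clock repressor, passed in males (1.70 ± 0.34, edgeR adjusted p = 0.0437). By sex in hCYP2B6-Tg livers the clock repressors Nfil3 (0.99 ± 0.15, edgeR adjusted p = 5.41e-05) and Cry1 (0.90 ± 0.24, 0.0152) were higher in females than in males and Bhlhe41 (-1.49 ± 0.30, 0.00161) lower. In Cyp2b-null livers Bhlhe41 (-2.88 ± 0.43, edgeR adjusted p = 5.67e-05) and Cry1 (0.87 ± 0.24, 0.0241) passed likewise, and Nfil3 did not (0.21 ± 0.15, 0.466). Bhlhe41 was near the detection limit in Cyp2b-null females, with a mean of 0.494 CPM (0 to 0.778). For the clock genes the median r to the members' mean was 0.11. The part of these quantities in the members' differences was not tested.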

How the data were processed

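The authors deposited 1 table of raw counts (whole numbers of reads per gene symbol) for 16 libraries. Per the submitters' processing notes, the authors used FastQC, Trimmomatic, GSNAP, Subread and edgeR with the mouse build GRCm38.p6; versions, strand setting and the handling of reads with several matches are not stated there or in the labels. Per the labels' protocols, liver RNA was taken up in Trizol and sequenced from NEB Next Ultra RNA libraries. Reads that match several genes can be split or dropped, which affects genes with close copies.

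From these counts, edgeR 4.0.16 in R 4.3.3 was run on 1 fit of 4 group means: filterByExpr (minimum count 10), TMM scaling, glmQLFit with robust estimation and its quasi-likelihood F test, two-sided. P-values were Benjamini-Hochberg adjusted over 13470 genes with a threshold of 0.05. Each standard error was derived from the F statistic and the fold change. The script was tested on simulated data. CPM values use TMM-scaled totals; log2 CPM used a prior count of 2. Totals ran from 5584587 to 9672708 counts, so a count of 0 allows up to 0.312 to 0.540 CPM (3 counts, counting error only). Xist and Ddx3y matched the labelled sex in 16 of 16 libraries, and no pair of libraries in a group looked like a copy (chi-square per degree of freedom 6.53 to 19.7 over 24 pairs). The muscle and pancreas marker lists, like those of other cell types, served to check the tissue.

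Coordinates, promoter windows and gene symbols come from RefSeq; exon lengths and transcripts come from the GENCODE annotation of GRCm38. Windows of 50 bases were matched exactly between transcripts. The members and the gene lists were chosen with earlier results of these data known. All 10 members were named, and of each list the genes past the threshold (up to 4 for genotype and 3 for sex) or else the 2 with the smallest p, and the 8 genes most like the members. Departing from that rule, cell type markers other than Cela1 are given as summed levels and not gene by gene. One gene that the rule gave is not reported here. Genes named beyond this rule are Hsp90ab1 and Hspd1 where the rule did not already give them, the pseudogenes, and the muscle and pancreas genes at 0. Alternatives were RLE and total scaling, 2 other filters, DESeq2 1.42.0, limma 3.58.1 voom with quality weights, the title number as a replicate block, leaving out each library, leaving out 3 libraries together, fitting the compared groups alone, and summing Hspa1a with Hspa1b. Summing pseudogene rows and the legacy quasi-likelihood option were added after the data were seen.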

Additional observations from a re-analysis of the deposited data

Results flagged for a closer look

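In 44 groups of 4 libraries (11 rows including the sum of Hspa1a and Hspa1b, in 4 groups each), 4 held 1 library far from the others by Dixon's 95% criterion for the gap to the nearest library over the group's range; chance flags about 1 in 20 groups. Chordc1 in tg_female 4 had 50.8 CPM, against 62.0 to 63.8 CPM in the other 3 hCYP2B6-Tg females. Hspb1 in tg_male 5 had 10.8 CPM, against 7.08 to 7.62 CPM in the other hCYP2B6-Tg males. Hspb1 in null_female 3 had 7.16 CPM, against 4.57 to 4.91 CPM in the other Cyp2b-null females. Hspa4l in null_male 1 had 11.5 CPM, against 9.75 to 10 CPM in the other Cyp2b-null males. The value of Hspb1 in tg_female 5 (27.7 CPM) did not meet the criterion, because the other hCYP2B6-Tg females were themselves spread from 7.38 to 11.6 CPM.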

How the results depend on the processing

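With no library left out, 0 of the 9 members passed in the genotype comparisons except under DESeq2 in females, where 1 did (Hspb1, adjusted p = 0.0413). Of the single-member values recomputed, 772 kept direction and side of the threshold, 13 moved past the threshold and 18 changed sign; no member was past the threshold before, so none could lose a call. In females, leaving out one library each gave 2 to 7 members at unadjusted p under 0.05 (2 without tg_female 5, 3 without null_female 1), and leaving out null_female 1, null_female 3 and tg_male 4 together gave 2, with Dnajb1 at -0.00646. That set gave 1 member in males, 3 by sex in hCYP2B6-Tg and 2 by sex in Cyp2b-null livers, and a Hspa8 difference between the sexes of 0.247.

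In males several estimates lay near 0 and changed sign. Dnajb1 was -0.00276 with library totals only. Leaving out one library each gave -0.0148 to 0.247 for Hspa4l, -0.0922 to 0.332 for Hsph1, -0.0649 to 0.113 for Hsp90aa1, -0.119 to 0.139 for Dnajb1 and -0.0461 to 0.205 for Chordc1, the lowest of the last 4 without tg_male 5. Averaged over the sexes, 3 to 7 members had an unadjusted p under 0.05. For the difference between the sexes, leaving out one library each gave a count of 0 to 1 and Hspa8 values of -0.245 to 0.0205. Over the other settings the count was 0 to 6 (1 with DESeq2, 1 with pseudogene rows summed and 6 with the replicate block). Hspa8 then ranged from -0.273 (replicate block) to 0.247 (3 libraries left out together).

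By sex in hCYP2B6-Tg livers, 1 member passed with library totals only (Hspa4l, adjusted p = 0.0457), 1 with DESeq2 (Hsph1, 0.0455) and 1 with pseudogene rows summed (Hsp90aa1, 0.0346). Leaving out one library each gave 0 to 3 past the threshold (1 each without tg_female 1, null_female 3 or tg_male 3, and 3 without tg_female 4) and 0 to 8 at unadjusted p under 0.05. In Cyp2b-null livers that last count was 0 to 1. Over all genes tested, settings that kept every library or dropped the 3 together gave 0 to 12 genes past the threshold in females (0 as reported), 5 to 47 in males (15), 0 to 31 averaged over the sexes (2) and 0 to 16 for the difference (6), each highest with DESeq2. Leaving out one library each gave 1 (without tg_male 4) to 24 (without null_female 1) in males. The causes were not tested.

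No clear pairing of libraries by title number was seen. Deviations of same-numbered libraries correlated at -0.107 to 0.122. In 7 of 24 library-by-comparison cases a library correlated best with its own number, with 0 to 3 of 6 per comparison. The share to be met without pairing was not computed, so pairing is not excluded. With the number as a replicate block, 4 members passed by sex in hCYP2B6-Tg livers, 6 had an unadjusted p under 0.05 for the difference between the sexes, and the male estimates of Hsph1, Hsp90aa1 and Dnajb1 were -0.122, -0.0949 and -0.097. Depth limits the inducible pair: 3 counts equal 0.312 to 0.540 CPM.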
